A study of Drosophila melanogaster with 12 samples.

Results

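The open chromatin described here comprises the ATAC-seq intervals of sorted neurons far from any DamID peak of Scalloped (Sd) or Nerfin-1. A place without a peak is not shown to be unbound. An interval was a member when its nearest edge was more than 20000 bp from every Sd and every Nerfin-1 DamID peak, on any chromosome except 4, Y and M. This gave 11690 of the 35494 ATAC intervals of the series, or 33.4% of the 35007 intervals on the 5 arms 2L, 2R, 3L, 3R and X. They are called far intervals below. The rule used the positions of the 3 peak lists, so the distance of the members from DamID peaks and their number are descriptions and not findings. Just outside the limit were intervals 19997, 19998 and 20000 bp from a DamID peak, in kek5, Stacl and CG4678, and just inside were intervals 20005 and 20006 bp away, in CG30116 and crm, and 1 at 20008 bp, 895 bp from jeb.

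The tissue was the larval central nervous system of Drosophila melanogaster at the wandering stage of the third instar. For DamID there were 2 samples of each of 3 transgenes, Dam without a partner (p[pUAST-LT3-Dam]), Dam-Sd and Dam-Nerfin-1, all inserted at attP2. Every DamID group also carried w, tubGal80TS, the driver GMR31H08-Gal4 and UAS-GFP. After egg laying at 25°C these animals spent 4 days at 18°C, where Gal80 blocks the driver, and then 24 hours at 29°C before dissection. The 3 ATAC-seq and 3 RNA-seq samples came from GFP-positive cells sorted from animals with a nerfin-1 reporter (GFP-NLS.SV-40, line iA), kept at 25°C. Open chromatin and RNA thus come from cells that express the reporter, whereas the DamID peaks come from the cells that GMR31H08-Gal4 drives, and the 2 sets of cells need not be the same. Each RNA sample combined several sorting days, so the spread is between pools and not between animals.

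In ATAC-seq a transposase inserts adapters where DNA is free of tightly packed nucleosomes, so intervals with many insertions mark promoters, enhancers and other accessible sequence. DamID marks GATC sites near a protein fused to the Dam methylase. Sd is the fly TEAD-family DNA-binding protein, known as the partner of Yorkie in Hippo signalling, and Nerfin-1 is a zinc-finger factor that keeps neurons from returning to a progenitor state. Sequence around fly centromeres is rich in repeats and poor in genes, and the genes it does hold often have very long introns. Sequences of the intervals are not shown, since no genome sequence was used here.

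The peak lists are single lists for each assay, without scores or replicate values, and their depth is unknown. Intervals and genes are not replicates, so classes of intervals are set side by side without a test, and ranges in brackets are 95% Wilson intervals that cover counting error only. The RNA table lists raw counts of 5135 genes kept by the authors, with 43555895 counts in library S1, 44657928 in S2 and 57468071 in S3, and a lowest count of 99. RNA levels are counts scaled to a listed total of 1000000 per library (CPM); a value with ± is the mean of S1, S2 and S3 with its SD (SD, n = 3 throughout). As a check, nerfin-1 stood at 2070 ± 371 CPM and sd at 393 ± 20.6 CPM, and neither had a far interval. CPM is not divided by length, so levels of different genes are not compared. All 12 pan-neuronal markers on the arms were in the RNA table (elav, nSyb, brp and Syt1 among them). Of other cells' markers the table held 1 of 7 for neuroblasts (ase), 2 of 10 for glia (gcm and nrv2), 2 of 8 for hemocytes (Pxn and Col4a1), 1 of 8 for muscle (Actn) and 0 of 11 for testis. Coordinates below are those of build dm6.

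The far intervals lay on all 5 arms, with 2898 on 3R, 2716 on 3L, 2173 on X, 2098 on 2R and 1805 on 2L. They made up between 27.8% (2L) and 36.2% (3L) of the ATAC intervals of an arm. A large part sat next to the centromeres. Centromere-proximal sequence is taken here as that beyond 22 Mb of 2L and X and beyond 23 Mb of 3L, and before 5 Mb of 2R and 4 Mb of 3R. These rounded limits were chosen after the values were seen. This sequence held 3385 far intervals, 29.0% of the members, and 88.8% of its 3810 ATAC intervals were far. On the rest of the arms 8305 intervals were far, or 26.6%. Few DamID peaks lay in the proximal sequence, 45 of the 4005 Sd peaks and 39 of the 3609 Nerfin-1 peaks on the arms. How far repeats or the mapping of reads shaped either list there was not tested.

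The members fell into 746 stretches free of DamID peaks, of which 7 reached the end of an arm. A stretch had a median length of 69598 bp and held a median of 8 far intervals (quartiles 4 and 17), and 64 stretches held a single one. The 186 stretches longer than 100 kb together held 7824 far intervals, 66.9% of the members. The 5 longest stretches were all centromere-proximal. The longest ran from the start of 3R to position 3585988 and held 761 far intervals, and touched 4 protein-coding genes (Myo81F, Pzl, spok and Parp1), with Alg-2 next to it. Of these, Parp1, which encodes poly(ADP-ribose) polymerase, was in the RNA table, where S1 had 95.4 CPM, S2 87.4 CPM and S3 88.5 CPM. On 2R, the stretch from 1811639 to 3940971, between CG41520 and Haspin, held 473 far intervals, with 108 of them in CG17684. On 3L, the stretch from 25118441 to 27172894, between MED21 and RpL15, held 445, with 116 in lovit, which encodes a vesicular histamine transporter. It also contains vtd, the cohesin subunit Rad21, which stood at 197 ± 8.08 CPM. The start of 2R up to 1071939 held 209, with 113 in DIP-lambda, and it reaches into rl, the fly ERK kinase, at 171 ± 7.39 CPM. The fifth, on 3L from 27280706 to 28011761, held 118, with 23 in Dbp80 (163 ± 7.74 CPM).

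Away from the centromeres the long stretches carried genes of neurons and of other tissues. These stretches were chosen by length after the values were seen. The longest one, on X from 21605100 to 22139732, begins before the 22 Mb limit and runs past it, so its last part is centromere-proximal. It held 105 far intervals, with at most 1 in any protein-coding gene. On X from 14322323 to 14649088 there were 89 far intervals, of which 41 lay in dpr8, a cell-surface recognition gene. On 3L from 1940440 to 2256285 there were 77, of which 22 lay in sls, the muscle titin gene, and 3 of the 29 protein-coding genes of this stretch were in the RNA table. On 2R from 6237149 to 6499997 there were 50 far intervals, and 0 of them lay in a protein-coding gene, although bin3 and Pld reach into this stretch. On 3L from 9900067 to 10153587 there were 66, of which 54 lay in dpr6. On 3R from 26253732 to 26504709 there were again 66, of which 16 lay in osy, in a stretch that also holds the clock neuropeptide gene Pdf. On 3L from 17052675 to 17278529 there were 70, of which 64 lay in Rbp6, an RNA-binding gene of the Musashi family.

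The density of open chromatin is given by distance from the DamID peaks as a description, since the rule used these distances. Outside the centromere-proximal sequence there were 28.4 ATAC intervals per 100 kb of sequence at 20 to 50 kb from a DamID peak (exact Poisson interval 27.7 to 29.1) and 28.2 beyond 50 kb (26.9 to 29.5). At 10 to 20 kb there were 26.5, at 5 to 10 kb 24.5 and at up to 5 kb 20.1 (19.6 to 20.6). That last value leaves out every interval that touches a peak. Inside DamID peaks there were 61.6, counting every interval that touches one, and wide intervals do so more readily. Peaks and the 5 kb beside them together had 27.6 (27.1 to 28.1), so the low value at up to 5 kb depends on how the bins are drawn. In the proximal sequence the density was 23.4 at 20 to 50 kb and 21.8 beyond (21.1 to 22.6). Far intervals covered 14.1% of the sequence more than 20 kb from a DamID peak on the rest of the arms, and 9.30% of it in the proximal sequence. Over all arms the far density was 26.2 per 100 kb, beside 26.4 for all intervals and all sequence.

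**Figure D1:**
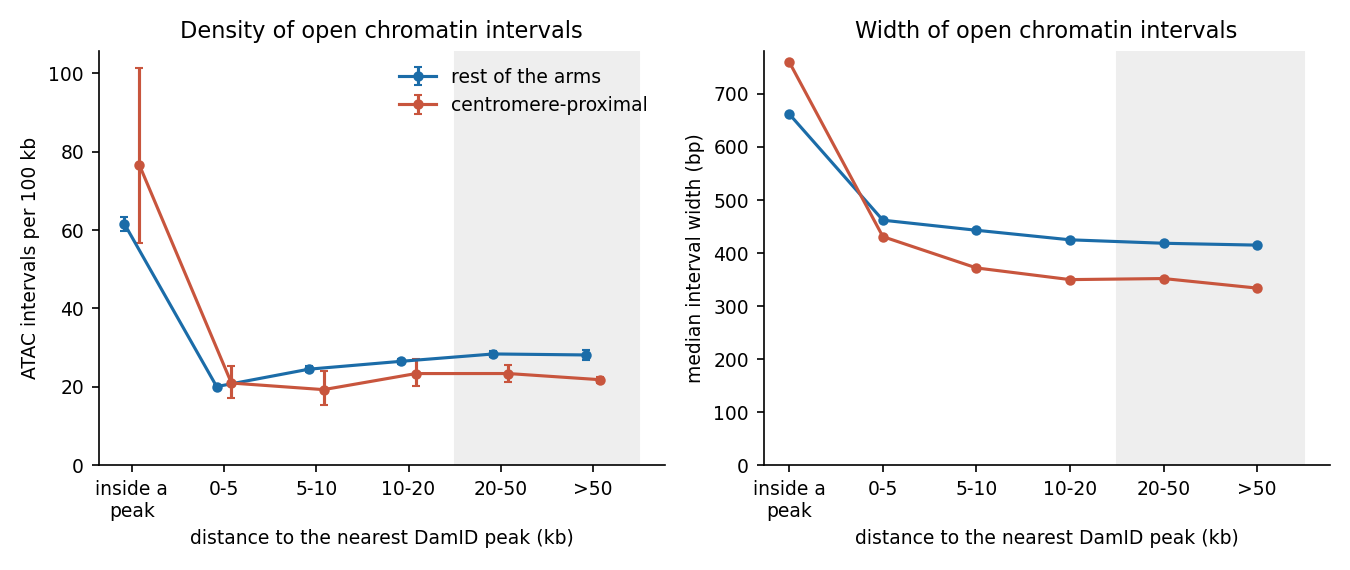
The left panel plots ATAC intervals per 100 kb of sequence (bars, exact 95% Poisson intervals) and the right panel the median interval width in bp, by distance to the nearest DamID peak in kb, for centromere-proximal sequence and the rest of the arms; far intervals lie in the grey area. On the rest of the arms the density was 20.1 at up to 5 kb, where intervals touching a peak are left out, and 28.4 at 20 to 50 kb, and the median width was 462 bp at up to 5 kb and 415 bp beyond 50 kb.

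Without regard to place, far intervals had a lower median width than the others. It was 394 bp (quartiles 269 and 599), beside 443 bp for the 18450 intervals within 20 kb of a DamID peak without overlap and 663 bp for the 4867 that overlapped one. Of the far intervals 6.56% were wider than 1000 bp, beside 8.48% and 26.4%, and 1.94% were under 100 bp, beside 0.818% and 0.205%. In the proximal sequence the far median was 336 bp and 4.55% were under 100 bp. On the rest of the arms it was 418 bp, beside 444 bp for the intervals within 20 kb there. The ATAC list is labelled as intersected peaks, and the narrowest far interval was 1 bp. A width may therefore not be the full extent of an open site.

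The widest far intervals were at single genes of several kinds. The widest, of 2842 bp, lay in Mur2B (X, 1524508 to 1527349), which was not in the RNA table. It was followed by one of 2817 bp in ab (2L, 11218888 to 11221704), a zinc-finger gene of dendrite shape, which was not in the RNA table. An interval of 2404 bp on 2R (20996020 to 20998423) covered neighbouring ends of Prosalpha3, a proteasome subunit at 176 ± 15.0 CPM, and CG10543, at 175 ± 6.30 CPM. Others lay in heph (2313 bp), an RNA-binding gene at 304 ± 25.1 CPM, in Gprk2 (2149 bp), a kinase of G protein-coupled receptors at 371 ± 18.5 CPM, and in l(3)80Fg (2141 bp). The remaining 4 of the 10 widest were outside protein-coding genes, and their nearest ones were CG43245 (30478 bp away), ATbp (343103 bp), CG17684 (28658 bp) and Caf1-180 (8280 bp).

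Most far intervals lay inside genes but away from their ends. Of the members 62.2% (61.3 to 63.1) overlapped a protein-coding gene, beside 69.1% of the intervals within 20 kb and 77.7% of those overlapping a DamID peak. The gene table gives no strand or exons, so promoters, exons and introns could not be told apart, and a gene end here is either end of a gene. Only 939 far intervals, 8.03%, lay within 250 bp of an end of a protein-coding gene, beside 22.9% and 45.1%. Inside a gene but away from its ends were 6488, or 55.5%, beside 48.7% and 34.3%. On the rest of the arms 10.2% of far intervals lay at a gene end, and in the proximal sequence 2.63% did. These shares are not adjusted for the gene content of the sequence. Of the 132.5 Mb of the arms, 44.7 Mb lay more than 20 kb from a DamID peak. Of the 13842 protein-coding genes on the arms, 1676 lay wholly in that sequence. How far gene content accounts for the lower shares in genes and at gene ends was not tested. Another 286 far intervals overlapped only genes of other kinds. More than 5 kb from any protein-coding gene were 25.6% of the far intervals, beside 12.8% of those within 20 kb. Since 1648 far intervals lay more than 20 kb from any protein-coding gene, 1210 of them in the proximal sequence, many of the members have no gene nearby to be assigned to.

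Place in the gene went with width in every class of intervals. Far intervals at a gene end had a median width of 556 bp, close to the 568 bp of intervals within 20 kb and below the 860.5 bp of those overlapping a DamID peak. Away from ends the far medians were 389 bp inside genes and 380 bp outside them, beside 408 and 411 bp within 20 kb. Without the proximal sequence the far and near medians lay closer together inside genes, at 408 and 409 bp, and outside them, at 404 and 414 bp. At gene ends they did not, at 550 and 566 bp. At ends of genes in the RNA table the far median was 739 bp (289 intervals), and at ends of other genes it was 482.5 bp (650 intervals). The same medians were 661 and 471 bp for intervals within 20 kb.

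**Figure D2:**
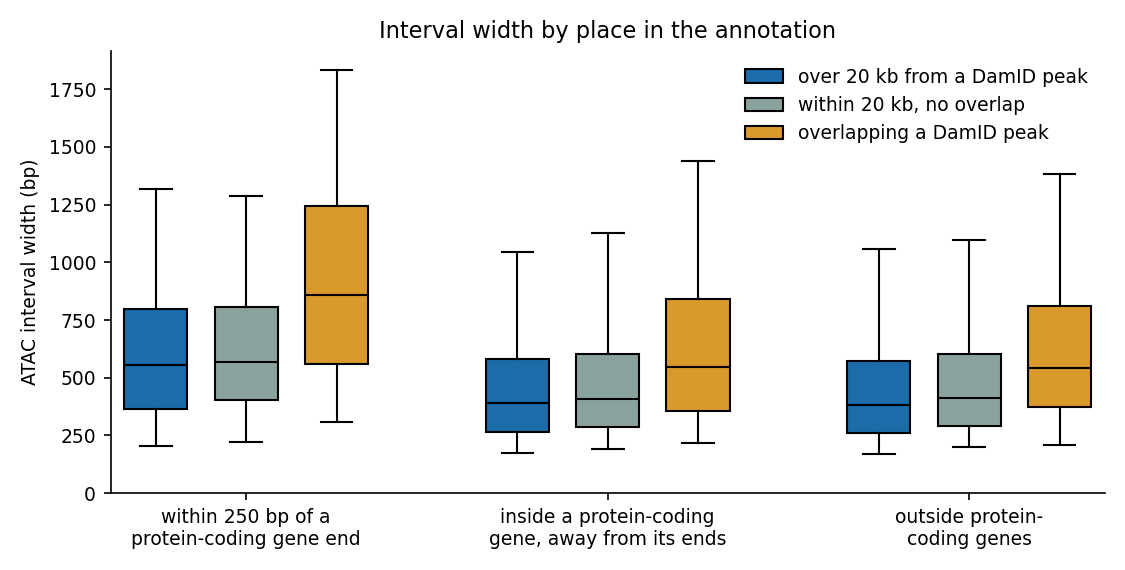
Interval width in bp is shown as boxes (median and quartiles) with whiskers at the percentiles 5 and 95, for intervals at gene ends, inside genes and outside protein-coding genes, in 3 classes of distance to a DamID peak. Far intervals are drawn in blue, and at gene ends their median was 556 bp beside 568 bp for intervals within 20 kb and 860.5 bp for those overlapping a peak.

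Other kinds of genes carried far intervals at different rates. Far intervals overlapped 12.5% of the 32 snRNA genes on the arms (4), 9.15% of the 1945 lncRNA genes (178), 4.14% of the 290 tRNA genes (12), 1.16% of the 258 miRNA genes (3) and 0.373% of the 268 snoRNA genes (1). Other ATAC intervals overlapped 43.8%, 40.3%, 53.4%, 14.3% and 13.8% of them. Of the 13842 protein-coding genes far intervals overlapped 1414 (10.2%), and other intervals 8264 (59.7%).

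Genes of more than 10 kb more often had a far interval than shorter ones. Whether this came from the sequence they cover was not tested. Of the 306 protein-coding genes that span more than 50 kb, 86.6% had a far interval in the gene or within 1 kb, and of the 1630 genes spanning 10 to 50 kb 30.2% did. Of genes of 2 to 10 kb 9.70% did, and of shorter ones 9.47%. The share over all protein-coding genes on the arms was 13.7% (1897 genes). This share and those by span are the background for the gene groups below. There were 198 genes that held 10 or more far intervals, with 4664 in all, at a median of 23.5 per 100 kb of gene (quartiles 18.3 and 29.2), beside 26.2 over all sequence more than 20 kb from a DamID peak. The gene value divides by the whole span, including any part within 20 kb of a DamID peak, so it is not directly comparable with 26.2. Of the 198 genes, 86 were in the RNA table, and 53 held no other ATAC interval. Where genes are nested or overlap, an interval was counted for each, which touched 394 far intervals.

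The genes with the most far intervals were 7 centromere-proximal genes and 3 others (Rbp6, bru3 and dpr6). Myo81F (FBgn0267431), an unconventional myosin gene spanning 1965857 bp of 3R, held 441, at 22.4 per 100 kb. It was followed by Pzl (FBgn0267430), a Piezo-like channel gene, with 147, lovit (FBgn0267429) with 116, DIP-lambda (FBgn0267428) with 113 and CG17684 (FBgn0263780) with 108. None of these 5 genes was in the RNA table, and 0 other ATAC intervals overlapped them. Rbp6 (FBgn0260943) held 64, at 35.7 per 100 kb, and bru3 (FBgn0264001), a CELF-type splicing regulator, held 58. RNA of Rbp6 was 2254 CPM in library S1, 1714 CPM in S2 and 1494 CPM in S3, so S1 was the highest. RNA of bru3 was 537, 615 and 543 CPM in the same order, with S2 the highest. l(3)80Fg (FBgn0287183) also held 58, and its identifier is newer than those of the RNA table, so its RNA could not be looked up. dpr6 (FBgn0040823) held 54 and was not in the table. Snap25 (FBgn0011288), a SNARE protein of synaptic vesicle fusion, held 51 and 6 other intervals, and stood at 52.8, 48.7 and 53.4 CPM.

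**Figure D3:**
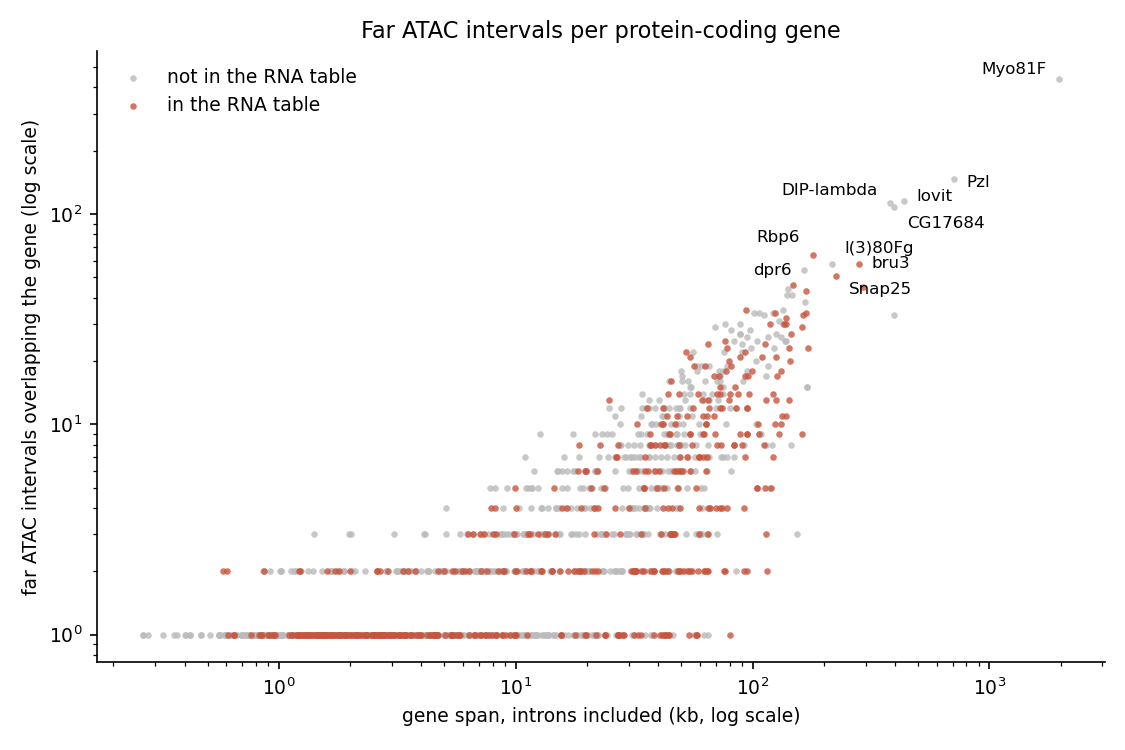
Each point is a protein-coding gene overlapped by a far interval, placed by its span in kb and by its number of far intervals, both on log scales, and coloured by whether it is in the RNA table. The 10 genes with the most far intervals are named, from 51 in Snap25 to 441 in Myo81F.

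The genes at far intervals were then read against the RNA of the sorted cells, which the rule did not use. Over all protein-coding genes on the arms 35.3% were in the RNA table. Of the 1897 genes at a far interval 26.6% (24.7 to 28.7) were, and 34.4% (32.0 to 37.0) when only genes overlapped by a far interval are counted. This group was mixed. Among the 1219 genes with far intervals and no others, 19.0% (16.8 to 21.2) were listed. Among the 678 with far and other intervals, which are long (median span 39092.5 bp), 40.4% (36.8 to 44.2) were. Genes with other intervals only were listed in 45.0% of cases, and genes with no interval in 2.31%. The order of the far-only and other-only genes was the same in 3 classes of gene span: 12.4% against 36.9% up to 2 kb, 25.0% against 49.8% from 2 to 10 kb, and 25.0% against 54.6% above. The RNA table comes from an older annotation. Without the 297 genes whose identifiers are newer, 19.5% of far-only and 46.0% of other-only genes were listed. Of the centromere-proximal far-only genes 33 of 73 were listed (45.2%), beside 198 of 1146 elsewhere (17.3%). That difference was not tested, and the proximal genes are longer (median span 11613 against 2023 bp).

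Listed genes nearly always had open chromatin at an end, also far from DamID peaks. There were 1676 genes whose whole span lay more than 20000 bp from any DamID peak, and 224 of them (13.4%) were in the RNA table. Of these 224, 215 (96.0%) had an ATAC interval within 250 bp of an end. Of the 1452 not listed, 543 (37.4%) had one. The same shares over all genes on the arms were 95.9% and 49.8%, beside 66.1% for listed and unlisted genes together. Read the other way, 28.4% of the 758 distant genes with an interval at an end were listed, beside 1.44% of the 416 with intervals within 1 kb but none at an end and 0.598% of the 502 without any. Away from this set, 53.3% of genes with an interval at an end were listed. An end interval was thus common to nearly all listed genes, while most distant genes that had one were not listed. Since the rule by which the authors kept genes is not given, a gene missing from the table is not shown to be silent.

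Among genes whose only ATAC intervals were far, the listed ones included genes of general cell maintenance. The 10 with the highest CPM were RpL7A, Dhc64C, RpLP2, RpL14, RpL37-1, promL, RhoGAP1A, Iswi, Ulp1 and CCT1; this group was chosen after the values were seen. RpL7A, a ribosomal protein gene, had 1 far interval and was at 1274 CPM in library S1, 1318 CPM in S2 and 1476 CPM in S3. Dhc64C, the heavy chain of cytoplasmic dynein that drives retrograde transport in axons, had 3 within 1 kb and stood at 1005, 1055 and 933 CPM. RpLP2 had 2 far intervals and stood at 845, 937 and 1084 CPM. For RpL7A, RpLP2, RpL14 and RpL37-1 the level was lowest in S1 and highest in S3. Iswi, the ATPase of chromatin remodelling complexes, had 1 far interval and stood at 418, 447 and 439 CPM. Genes of neurons in this class included Rab3, a GTPase of synaptic vesicles, with 4 far intervals and 234, 212 and 226 CPM. DAAM, a formin of growing axons, had 10 in the gene and stood at 275, 276 and 268 CPM. None of the 12 ribosomal protein genes of the list used here (median span 1524.5 bp) had a far interval, whereas RpL7A, RpLP2, RpL14 and RpL37-1, which are not on that list, had 1 or 2 each.

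**Figure D4:**
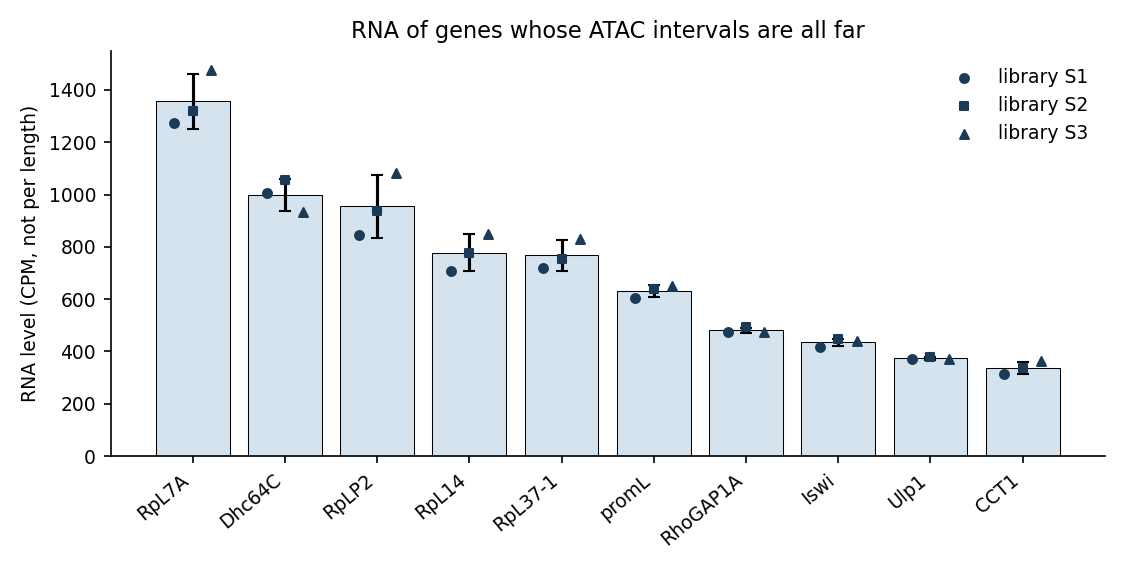
Bars give the mean RNA level in CPM with the SD over 3 libraries, and symbols the libraries S1, S2 and S3, for the 10 genes of highest CPM whose ATAC intervals were all far. Means run from 337 CPM for CCT1 to 1356 CPM for RpL7A; levels are not per length, so heights of different genes are not to be compared.

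Listed genes with far and other intervals included long neuronal genes. Of the 10 genes of highest CPM at any far interval, 9 were of this kind: heca, Ank2, Appl, shep, CadN, Tet, Rbp6, stan and spen. RpL7A, the other one, had far intervals only. CPM is not per length and so favours long genes in this choice. heca, also called headcase and known from imaginal cells, held 2 far and 28 other intervals and stood at 3684 ± 346 CPM. Ank2, an ankyrin of axons and synapses, held 2 far and 14 others, at 2868 ± 293 CPM. Appl, the fly amyloid precursor protein, held 2 far and 15 others, at 2348 ± 121 CPM. By contrast stan, an atypical cadherin of planar polarity and axon growth, held 11 far and 6 others, at 1675 ± 268 CPM.

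Gene groups were compared by the share of members with a far interval in the gene or within 1 kb. These shares rest on the distances that the rule used, so they are descriptions. They move with gene span, so the median span of each list is given, and the background is 13.7%. Of the 53 Dpr, DIP, Beat and Side recognition genes on the arms, immunoglobulin-type surface proteins that pair neurons, 33 (62.3%; median span 36685 bp) had a far interval, with 536 such intervals in all. Of the 33, 13 had no other ATAC interval, among them DIP-lambda (113), dpr21 (35), side-II (25) and side-VI (24). RNA of side-VI stood at 152, 154 and 147 CPM in S1, S2 and S3, and RNA of dpr21 at 42.4, 50.4 and 58.6 CPM. Of the 33, 13 were in the RNA table, and dpr6 and dpr8, with 54 and 41 far intervals, were not. Among the others, dpr3 had 10, dpr1 8, dpr5 3 and dpr2 1, none of them in the RNA table. The members dpr4, dpr10 and dpr14 had other intervals only.

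Neurotransmitter receptors had far intervals at 24 of 45 genes (53.3%; median span 20435 bp). Among nicotinic acetylcholine receptor subunits, the main fast excitatory receptors of the fly brain, nAChRalpha1 and nAChRalpha4 had 20 far intervals each and no others. nAChRalpha1 stood at 203, 210 and 175 CPM and nAChRalpha4 at 195, 176 and 171 CPM, so both were expressed in each library. The subunits nAChRalpha3, nAChRalpha5, nAChRalpha6 and nAChRalpha7 had 16, 10, 22 and 3 far intervals beside other ones. Rdl, the GABA-gated chloride channel, had 6 and stood at 113 ± 12.1 CPM. Nmdar1, a subunit of NMDA-type glutamate receptors, had 5 and no others, at 53.6 ± 6.18 CPM. The 14 receptors of dopamine, octopamine and serotonin on this list, grouped after the values were seen, span from 10318 bp (5-HT1B) to 58027 bp (Dop2R). Of all genes of 10 to 50 kb 30.2% had a far interval, and of longer ones 86.6%. Among the 14 receptors, 12 had far intervals. These were Dop1R1, Dop1R2, Oamb, Octbeta1R, Octbeta2R, Octbeta3R, Octalpha2R, 5-HT1A, 5-HT1B, 5-HT2A, 5-HT2B and 5-HT7, with between 3 (Octbeta1R) and 20 (Octalpha2R) far intervals, and none was in the RNA table. Dop2R and DopEcR had other intervals only, and DopEcR was in the table, at 91.3 ± 10.8 CPM. Grd, Lcch3 and nAChRalpha2 had other intervals only.

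Receptors of neuropeptides, a list that also holds moody and 3 Lgr genes, had far intervals at 22 of 37 genes (59.5%; median span 17335 bp), of which 9 had no others. SPR, the sex peptide receptor, had 12, MsR1, a myosuppressin receptor, 9, AstC-R1, an allatostatin C receptor, 8 and NPFR, the neuropeptide F receptor, 3. The allatostatin receptors AstA-R1, AstC-R2 and AstA-R2 had 8, 6 and 1, and Pdfr, the receptor of the clock peptide Pdf, had 2. Dh44-R1, Dh44-R2 and Lkr had other intervals only. None of the 37 was in the RNA table. The neuropeptide and insulin-like peptide genes themselves are short (median span 2112 bp), and 5 of 40 (12.5%) had a far interval, with 6 such intervals in all. These were AstA (2), RYa, natalisin, Ilp3 and Ilp4 (1 each). NPF and Pdf had no ATAC interval within 1 kb, as did 11 genes of this list in all, and 1 of the 40 was in the RNA table.

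Ion channels had far intervals at 12 of 23 genes (52.2%; median span 30139 bp). Sh, the Shaker potassium channel, had 33 and stood at 650, 549 and 468 CPM, highest in S1. Ca-alpha1T, a T-type calcium channel, had 28 and no others, and was not in the RNA table. The sodium channel para had 19, but its identifier is newer than the RNA table. SK, a calcium-activated potassium channel, had 13 and stood at 130 ± 13.1 CPM. The calcium-activated channel slo had 13, Shab 8, Shawl 3 and the calcium channel cac 1, of which cac was in the RNA table, at 231 ± 19.3 CPM. The channels Shal, Shaw and sei had other intervals only.

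Axon guidance and adhesion genes are the longest of the lists (median span 40274 bp), and 22 of 42 (52.4%) had a far interval, but only 2 of these, CadN2 and Nlg3, had no other. CadN2, a cadherin gene beside CadN, had 28 far intervals and Nlg3, a neuroligin, 30, and both were absent from the RNA table. Ten-a, a teneurin of synaptic partner matching, had 46 far intervals and 51 others overlapping it, at 974 ± 86.4 CPM. The receptor phosphatases Lar and Ptp99A had 27 and 21 far intervals, at 648 ± 35.9 and 424 ± 17.9 CPM. Dscam4, Dscam1 and Ten-m had 4, 2 and 2. Dscam2, Dscam3 and Fas1 had other intervals only.

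Transcription factors of neuron identity and patterning had far intervals at 12 of 50 genes (24.0%, median span 18954 bp), beside 30.2% of all genes of 10 to 50 kb. Of the 12, 1, scro, had no others, and its identifier is newer than the RNA table. hth had 18 and stood at 411 ± 22.8 CPM, and bab2 had 10, at 265 ± 21.5 CPM. Lim1 had 8, bab1 4, dac 2, and hb and inv 1 each, and tup, Lim3 and ap had other intervals only. Among the 8 Hox genes, which set segment identity, 5 (62.5%; median span 30563 bp) had far intervals: Antp 10, Ubx 7, abd-A 5, lab 3 and Abd-B 3. None of the 8 was in the RNA table, and pb, Dfd and Scr had other intervals only. Of 17 Hippo pathway and Yorkie-Scalloped target genes 2 (11.8%, median span 15696 bp) had far intervals. The share was 13.7% over all genes and 30.2% over all genes of 10 to 50 kb. By the rule a far interval lies more than 20000 bp from every Sd peak. The share at Scalloped targets is therefore a description and not a finding about these genes. The 2 genes were ds, an atypical cadherin (18, with a newer identifier), and sav (1). Of 18 Notch, Bearded and E(spl) genes 1 (5.56%; median span 1075 bp) had any, mam, the Notch coactivator, with 9, beside 9.47% of all genes of up to 2 kb.

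Genes of other tissues also had far intervals. Of 179 chemosensory receptor genes 23 had one (12.8%; median span 1691 bp), 21 of them without other intervals. Ir41a had 26, Or10a 4, Or22b and Or69a 2 each and Or49b, Or82a and Or83c 1 each, and 64 of the list had no ATAC interval at all. For odorant-binding proteins 7 of 51 did (13.7%; median span 788 bp), and for cuticle proteins 21 of 117 (17.9%; 983 bp). Of the chemosensory and cuticle genes 0 were in the RNA table. Among markers of other cell types, 4 of 8 hemocyte genes had a far interval (NimC1, srp, He and eater). So did 3 of 8 muscle genes (up, wupA and sls, with 23 at sls) and 1 of 11 testis genes (sa). The same held for 2 of 10 glial genes (Gs2 and vir-1) and 1 of 7 neuroblast genes (klu). Median spans of these lists were 10809.5 bp for hemocytes, 14922.5 bp for muscle, 1314 bp for testis, 6597.5 bp for glia and 3360 bp for neuroblasts. None of these 11 genes was in the RNA table, and wupA has a newer identifier. Among the pan-neuronal genes (median span 29703.5 bp) 4 of 12 had far intervals: Rbp6 (64), Snap25 (53 within 1 kb), CadN (11) and Syt1 (3).

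**Figure D5:**
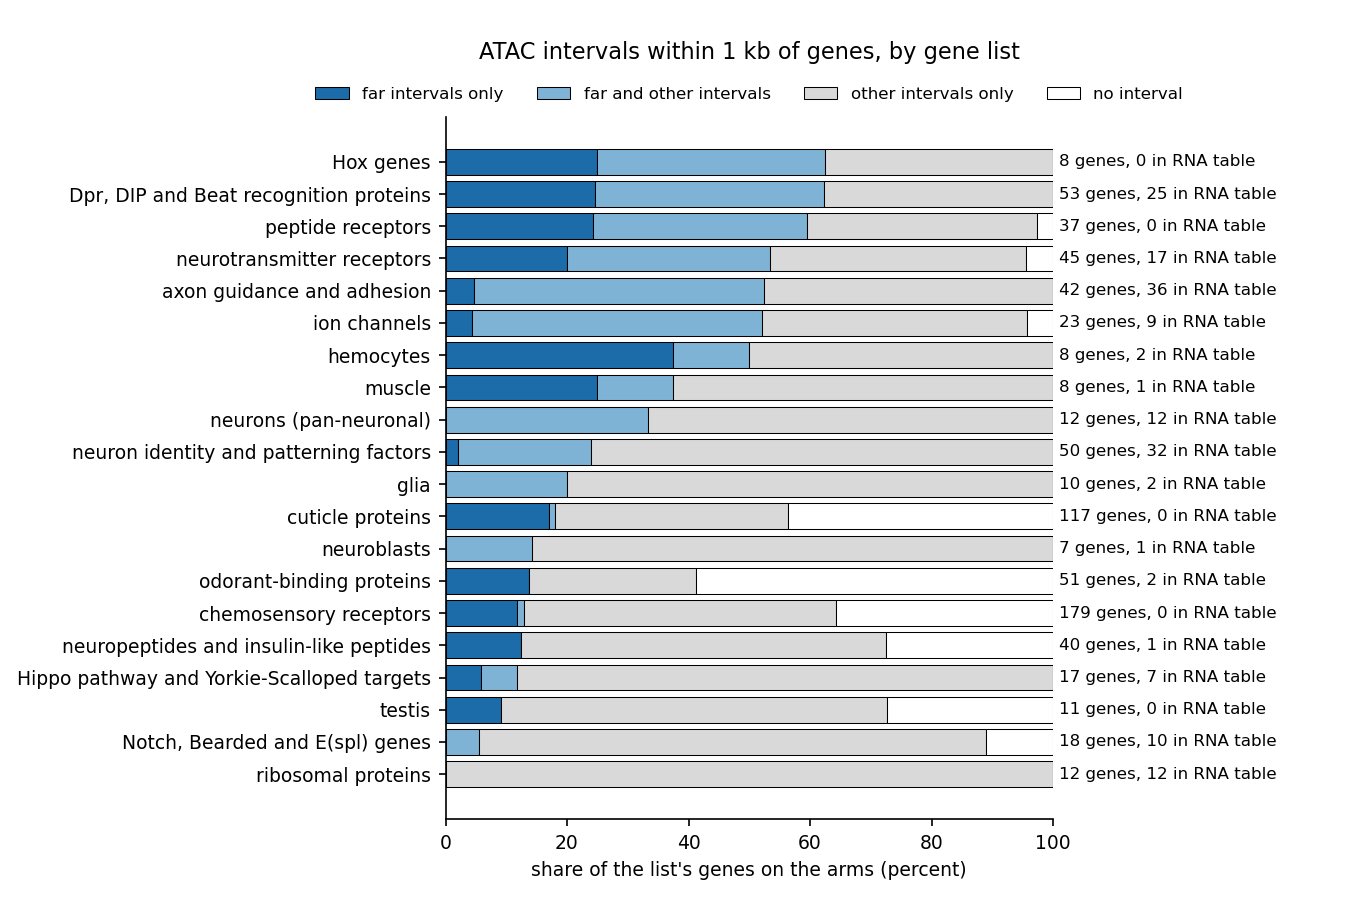
Bars show, for each gene list, the share of its genes on the arms with far ATAC intervals only, far and other intervals, other intervals only, or no interval, in the gene or within 1 kb; the text at the right gives the number of genes and how many are in the RNA table. Hox genes (5 of 8) and Dpr, DIP, Beat and Side genes (33 of 53) stand at the top, and ribosomal protein genes (0 of 12) at the bottom.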

How the data were processed

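Bowtie2, MACS2, bedtools, Subread, featureCounts, edgeR and build dm6 are named, per the submitters' processing notes, without saying what each was used for. The ATAC and DamID files hold positions only. The RNA values are raw read counts per gene as deposited by the authors, for genes they kept by a rule not stated here. RNA columns could not be tied to replicate numbers, and 0 columns were left unmapped.

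Repeated DamID rows (1 per gene) were reduced to 4064 Sd and 3649 Nerfin-1 peaks. Distance is the number of bases between nearest edges. Gene spans came from a RefSeq table of the same assembly, without strand, exons or sequence. Of 5135 RNA identifiers, 5010 matched a symbol. CPM was computed from listed totals. No test was run: peak lists have no replicate values and the RNA has 1 group. Interval code was tested on simulated data (Python 3.11.15, numpy 2.4.6, pandas 2.3.3, scipy 1.17.1). edgeR 4.0.16 gave TMM factors for an alternative. Planned RNA levels per coding length and promoter motifs were not run, for lack of sequence tables.

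Genes named are those at the 10 widest intervals, the 10 with most far intervals, those of the 5 longest stretches, the 10 with highest CPM, up to 6 members of each list with far intervals and 3 without; others were chosen after their values were seen. The members and lists were chosen with earlier results of these data known. Alternatives covered the distance limit, the lists used, interval width, gene flanks, identifiers and RNA libraries.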

Additional observations from a re-analysis of the deposited data

Results flagged for a closer look

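ATAC intervals were also found on chromosome Y, which the choice of members leaves out: the deposited list holds 138 there, beside 0 Sd peaks and 1 Nerfin-1 peak. They were used in no comparison.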

How the results depend on the processing

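The number of far intervals was 17872 with a limit of 10000 bp and 4764 with 50000 bp, in place of 11690. Their median width was 404 and 367 bp under these limits, 402 bp with Nerfin-1 peaks alone and 418 bp without centromere-proximal sequence (394 bp as reported). The share inside a protein-coding gene was 64.3% and 56.9% under these limits and 67.6% without proximal sequence (62.2%). The density was 25.7 per 100 kb with intervals of at least 100 bp and 28.4 without proximal sequence (26.2). The share of genes at far intervals that were in the RNA table was 28.7% with 10000 bp, 34.4% with no flank and 21.4% with a flank of 5 kb (26.6%). With no flank the interval was 32.0 to 37.0% and held the 35.3% of all genes, so that setting ends the difference from all genes. Other alternatives moved these values by less than counting error, or the count by under 1.5 times. The cause of these shifts was not tested, except that a limit or flank changes which intervals or genes are counted. TMM scaling moved none of the 10 highest levels by more than 1 SD. Neither did leaving out each RNA library in turn, but with 3 libraries that check could not exceed 1 SD, so it is not informative. RNA levels per coding length were not run. No paired analysis was possible because the peak lists hold no replicate values and the RNA has 1 group. Peak lists have no depth, so the limits of detection of far intervals are unknown.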
